A study of Mus musculus with 12 samples.

Results

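Immediate early genes that are classical targets of the transcription factor CREB, 10 in all, were followed in RNA-seq of mouse CD8+ T cells. The list was drawn up by gene name, with earlier results of these data known: the NR4A orphan nuclear receptors Nr4a1, Nr4a2 and Nr4a3, the AP-1 subunits Fos, Fosb and Junb, the zinc finger factors Egr1 and Egr2, and the MAP kinase phosphatases Dusp1 and Dusp5. All 10 were found among the 54532 genes listed for each library. Primary wild-type CD8+ T cells were activated in culture, transfected with a non-targeting short inhibitory RNA (siNTC) or with one against Creb1 (siCreb1), and given the vehicle DMSO or 20 μM trans-vaccenic acid (TVA), a dietary trans fatty acid, for 24 h. The 4 groups were siNTC, siNTC plus TVA, siCreb1 and siCreb1 plus TVA, with 3 libraries each. All 4 groups therefore share activation, siRNA delivery and culture, and the knockdown was transient and partial. The labels do not say whether the 3 libraries of a group came from separate mice, so p-values measure the spread between libraries, which may be technical. The question behind the design is which responses to TVA depend on CREB.

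Immediate early genes are transcribed within minutes of a stimulus without new protein synthesis, and their short-lived transcripts return towards a basal level while the stimulus is still present. Cyclic AMP activates protein kinase A, which phosphorylates CREB bound at cAMP response elements, and many immediate early promoters hold such elements beside serum response elements that answer to ERK signalling. In T cells, the NR4A and EGR factors rise on antigen receptor triggering, and the NR4A factors and Egr2 restrain effector function. AP-1 pairs with NFAT at cytokine genes, and DUSP phosphatases switch off the MAP kinases that induced them.

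The promoters of these genes are where CREB would act, and RefSeq promoter sequence (GRCm38.p6, from 250 bases before to 50 bases after the start) was at hand for 9 of the 10 genes, all but Egr1. Each was searched on both strands for the palindromic cAMP response element TGACGTCA, for its core TGACG, for the AP-1 site TGANTCA, for the EGR site GCGNGGGCG, for the NR4A monomer site AAAGGTCA and for the CArG box that serum response factor binds. The palindrome holds 2 cores. It was found in Dusp1 and in no other promoter of the 9 genes, against 1.79% of 32851 mouse promoters of the same length. The core was found in at least 1 promoter of each of the 9 genes, against 20.8% of promoters counted singly. For Egr2, which has 5 RefSeq starts, the core was present before the 3 starts farthest downstream and absent from the first 2. The Nr4a1, Nr4a2 and Nr4a3 promoters held 4 cores each, Dusp1 held 3, Fos held 2, and Fosb, Junb and Dusp5 held 1 each. EGR sites were found in Nr4a1, Nr4a2 and Fosb (5.55% of promoters) and CArG boxes in Egr2 and Dusp5 (1.63%). The AP-1 site (7.81% of promoters) and the NR4A site (1.51%) were found in no window of the 9 genes. The promoters of Dusp1, Junb and Nr4a1 are printed because Dusp1 and Junb are the genes that passed the test on knockdown and Nr4a1 carries 4 cores without passing it. Capitals mark the palindrome and the cores on either strand, and the sequences run 5′ to 3′ along the gene, which is the minus strand for Dusp1 and Junb and the plus strand for Nr4a1.
Dusp1 chr17:26508423-26508722: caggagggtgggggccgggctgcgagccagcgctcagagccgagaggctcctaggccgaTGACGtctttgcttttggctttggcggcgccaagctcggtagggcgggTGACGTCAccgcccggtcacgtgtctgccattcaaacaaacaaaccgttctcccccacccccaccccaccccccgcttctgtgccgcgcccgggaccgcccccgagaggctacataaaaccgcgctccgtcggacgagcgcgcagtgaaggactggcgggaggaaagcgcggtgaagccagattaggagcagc
Junb chr8:84978699-84978998: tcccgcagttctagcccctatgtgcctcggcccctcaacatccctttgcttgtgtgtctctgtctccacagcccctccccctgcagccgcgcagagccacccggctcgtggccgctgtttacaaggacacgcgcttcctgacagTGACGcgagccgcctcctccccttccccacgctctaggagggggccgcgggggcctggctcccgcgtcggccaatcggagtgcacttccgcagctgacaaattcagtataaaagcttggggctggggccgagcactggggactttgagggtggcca
Nr4a1 chr15:101266596-101266895: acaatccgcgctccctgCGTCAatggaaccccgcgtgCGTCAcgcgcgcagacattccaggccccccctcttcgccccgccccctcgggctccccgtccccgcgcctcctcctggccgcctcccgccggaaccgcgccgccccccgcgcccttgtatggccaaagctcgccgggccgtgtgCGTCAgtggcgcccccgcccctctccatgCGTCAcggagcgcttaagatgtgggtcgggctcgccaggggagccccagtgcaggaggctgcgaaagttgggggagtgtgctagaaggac
Counted from the start, the palindrome of Dusp1 begins at base -143 and a separate core at base -191. The core of Junb begins at base -106. The cores of Nr4a1 begin at bases -233, -213, -69 and -40. A match of letters is a description of the window and does not show that CREB was bound in these cells. Sequence outside the windows was not searched, so a site absent here may lie farther from the start.

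**Figure D1:**
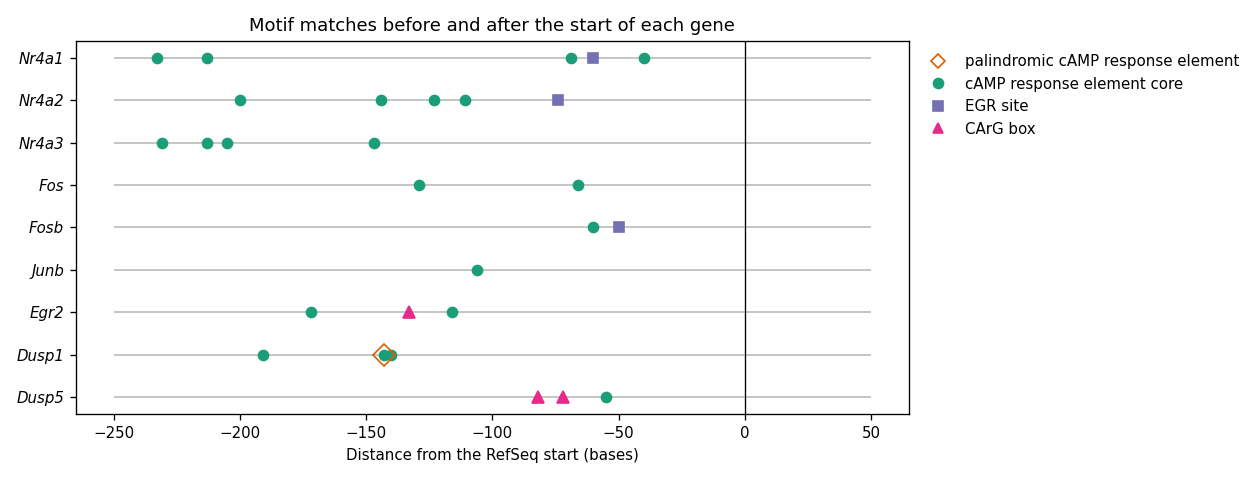
Motif matches in the promoters of 9 genes, with the distance of the first base of each match from the RefSeq start on the horizontal axis (bases) and a line per gene. Circles are cAMP response element cores, the open diamond is the palindromic element, found in Dusp1 alone at base -143, squares are EGR sites and triangles are CArG boxes; for Egr2 the start farthest downstream of 5 is drawn.

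The files held FPKM, which are reads scaled by gene length and by library depth. Whole reads could be recovered from them and came to 16660234 to 24602484 per library. Creb1 itself checked the labels: its mean level was 10.6 and 11.8 FPKM in siNTC cells without and with TVA and 1.42 and 1.55 in siCreb1 cells (n = 3 each), which leaves 0.134 and 0.131 of the level without and with TVA. CD8 T cell markers summed to 2362–2375 FPKM in the 6 siNTC libraries and 2253–2283 in the 6 siCreb1 libraries, and CD4 T cell markers to no more than 6.20. Of the 8 CD8 markers, 2 passed the test as higher and 4 as lower in siCreb1 without TVA, where 13.7% of all genes passed in either direction. The 7 myeloid markers summed to 8.83–10.3 FPKM in siCreb1 plus TVA and 5.51–7.65 in the other groups, B cell markers to 9.48–14.2, natural killer cell markers to 31.6–35.5 and erythroid markers to at most 0.567, with Hbb-bs at 0. Heat shock genes that handling can raise passed as higher for 2 of 7 with TVA in siNTC cells (1 without siNTC replicate 2 or 3 or any 1 siNTC plus TVA library, and 3 without siCreb1 replicate 2); without TVA 0 of 7 passed by limma in siCreb1 against siNTC (1 at an unadjusted p under 0.05, and 2 passed by limma-voom). Of all genes, 7.38% passed with TVA in siNTC cells, in either direction. In bulk RNA, fewer cells of a type and less RNA per cell cannot be told apart.

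At this time the 10 genes spanned more than 2 orders of magnitude. Mean levels over the 12 libraries, which are per length and so comparable between genes, were 45.0 ± 4.24 FPKM for Junb (SD, n = 12), 12.8 ± 1.35 for Dusp5, 6.18 ± 0.395 for Egr1, 3.49 ± 0.384 for Nr4a1, 2.87 ± 0.445 for Dusp1, 2.43 ± 0.293 for Egr2, 2.13 ± 0.166 for Nr4a3, 1.33 ± 0.195 for Nr4a2, 0.680 ± 0.212 for Fos and 0.197 ± 0.0637 for Fosb. The ranges of neighbours in that order overlapped between Nr4a1 and Dusp1, Dusp1 and Egr2, Egr2 and Nr4a3, and Nr4a2 and Fos, and stood apart for the other 5 neighbours. Of the 10 genes, 8 reached the mean of 1 FPKM needed for the test. Fos, at 16 to 47 reads per library, and Fosb, at 13 to 47 reads, did not. All 10 were thus detected, but the best known member of the family, Fos, was close to the limit of these libraries while Junb lay at the 90.3 percentile of the 11550 genes tested.

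**Figure D2:**
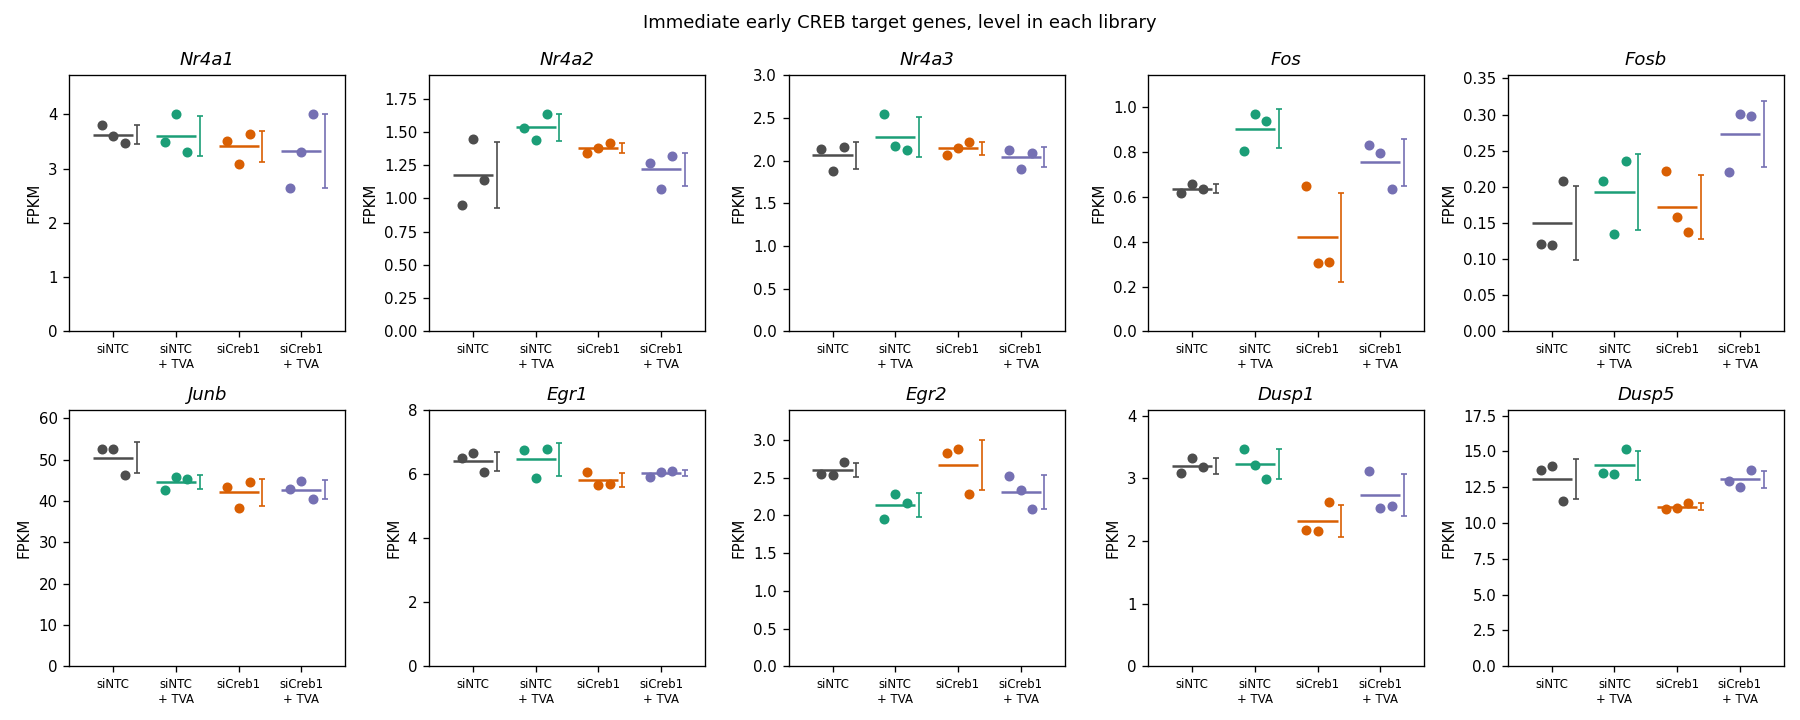
FPKM of each of the 10 genes by library, with the 4 groups on the horizontal axis and a vertical axis that starts at 0 in each panel. Points are libraries, horizontal lines are means and bars are SD (n = 3); Dusp1 in siCreb1 (2.16 to 2.62 FPKM) lies below siNTC (3.08 to 3.33), and no gene differs by more than 2-fold between group means except Fos.

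TVA moved none of the 8 tested genes past an adjusted p of 0.05, in siNTC cells or in siCreb1 cells. On Creb1 knockdown without TVA, Dusp1 and Junb passed as lower, calls kept in 15 of 20 and 13 of 21 alternative settings. These counts leave out the setting that adds 0.1 rather than 1 to FPKM before the logarithm, which kept both calls. Differences are log2 fold changes of FPKM + 1 from limma, with Benjamini-Hochberg adjustment over the 11550 genes tested, and each has its standard error (SE) from the fit. In siNTC cells, where 7.38% of all tested genes passed, 0 of 8 passed with TVA by limma or by limma-voom and 3 had an unadjusted p under 0.05 (20.9% of all genes). The ranges of 2 genes did not overlap there, both lower, against 23.9% of all genes. In siCreb1 cells, where 0.537% of all genes passed, 0 of 8 passed with TVA by either tool and 1 had an unadjusted p under 0.05 (9.58% of all genes). The ranges of 2 genes did not overlap, 1 of them lower, against 17.1% of all genes. With siCreb1 against siNTC without TVA, 2 of 8 passed, both lower, where 13.7% of all genes passed and 7.21% passed as lower, and 4 had an unadjusted p under 0.05 (28.1% of all genes). The ranges of 4 genes did not overlap between those groups, all lower, against 31.5% of all genes, and 5 of the 8 fold changes were negative, against 50.4%. With siCreb1 against siNTC in the presence of TVA, 0 of 8 passed by either tool and 1 had an unadjusted p under 0.05, where 10.1% of all genes passed and 26.2% had such a p. The ranges of 2 genes did not overlap, against 31.8% of all genes, and 7 of the 8 fold changes were negative, against 54.0%. The median change of the 8 genes was -0.10 on knockdown in both cases, beside 0.00 and -0.01 over all genes, and 0.01 and -0.01 for TVA in siNTC and siCreb1 cells, beside -0.01 and 0.00. Over both arms together, 2 of 8 passed as lower in siCreb1 cells, where 20.5% of all genes passed and 11.0% passed as lower, and 0 of 8 passed with TVA by limma, where 5.55% of all genes passed (2 members and 18.3% of all genes had an unadjusted p under 0.05, and 1 member passed by limma-voom). The interaction, which sets the TVA effect in siCreb1 cells against that in siNTC cells, passed for 0 of 8 and for 2.24% of all genes, with an unadjusted p under 0.05 for 1 member and 14.3% of all genes. The comparisons share libraries: both knockdown and TVA effects without the other agent are set against the same 3 siNTC libraries.

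**Figure D3:**
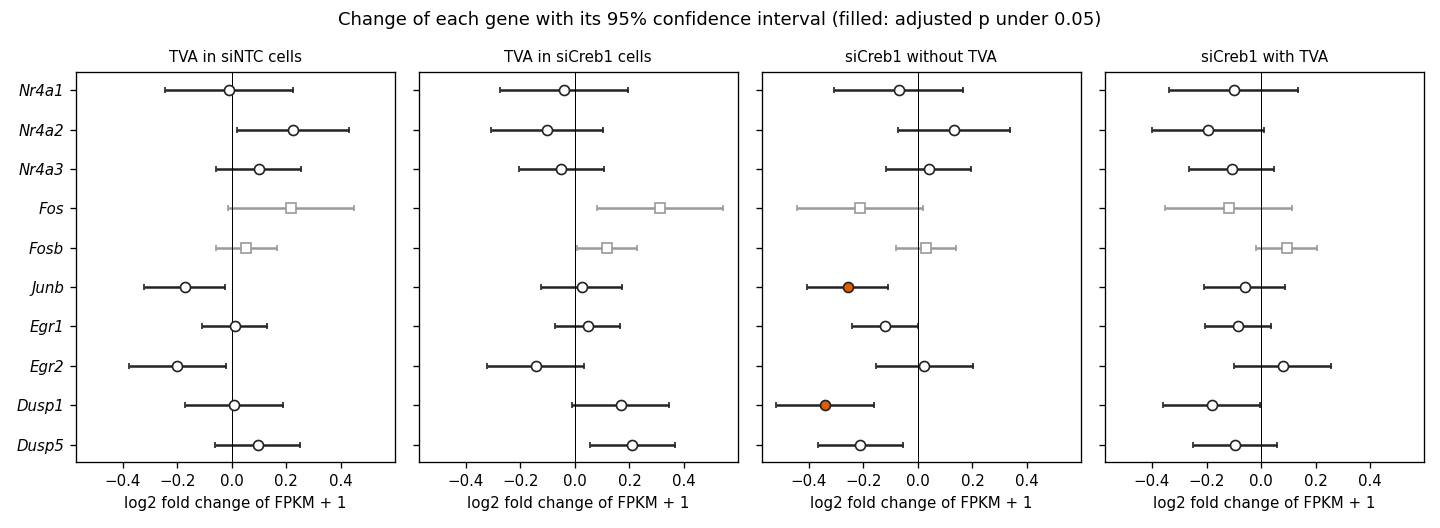
Log2 fold change of FPKM + 1 of each gene (horizontal axis) with its 95% confidence interval in 4 comparisons. Filled circles passed an adjusted p of 0.05, which only Dusp1 (-0.34) and Junb (-0.26) did, both in siCreb1 against siNTC without TVA; squares are Fos and Fosb, taken from the fit without a filter on low levels.

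Dusp1 encodes a nuclear phosphatase that inactivates p38, JNK and ERK and had the largest knockdown change of the 8 without TVA. Its level was 3.08, 3.33 and 3.18 FPKM with siNTC alone, 3.47, 3.21 and 2.99 with siNTC and TVA, 2.18, 2.16 and 2.62 with siCreb1 alone, and 3.12, 2.52 and 2.55 with siCreb1 and TVA. Every siCreb1 library without TVA lay below every siNTC library, whereas with TVA 1 siCreb1 library reached into the siNTC plus TVA range. Without TVA the mean fell from 3.20 ± 0.122 to 2.32 ± 0.259 FPKM (SD, n = 3), a ratio of 0.725 and a log2 change of -0.34 (SE 0.081, adjusted p = 0.0196). With TVA the log2 change was -0.18 (adjusted p = 0.184), and the difference between these effects was not past the threshold (interaction 0.16, adjusted p = 0.579). Over both arms the log2 change was -0.26 (SE 0.057, adjusted p = 0.00923), and an exact two-sided permutation test within arms gave p = 0.01 with 0.005 the smallest possible. The log2 change of Dusp1 with TVA was 0.01 in siNTC cells (adjusted p = 0.972) and 0.17 in siCreb1 cells (adjusted p = 0.552). The call without TVA was lost without siNTC replicate 2 (adjusted p = 0.0619), without siCreb1 replicate 1 (0.0683) and without siCreb1 replicate 2 (0.0675). It was also lost with no filter on low values (0.0563) and by limma-voom on all genes above 0 (0.0792). The call over both arms was kept in all 19 alternatives counted for it, and also with a pseudocount of 0.1, which that count leaves out.

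Dusp5 encodes a nuclear phosphatase specific for ERK. It measured 13.7, 14.0 and 11.5 FPKM with siNTC alone, 13.5, 13.4 and 15.2 with siNTC and TVA, 10.9, 11.0 and 11.4 with siCreb1 alone, and 13.0, 12.5 and 13.7 with siCreb1 and TVA. The siCreb1 libraries without TVA lay below all other 9 libraries, with siNTC replicate 3 just above them. Its log2 change on knockdown was -0.21 without TVA (SE 0.070, adjusted p = 0.0733) and -0.10 with TVA (adjusted p = 0.422), and that with TVA was 0.10 in siNTC cells (adjusted p = 0.498) and 0.21 in siCreb1 cells (adjusted p = 0.34). None of these passed the adjusted threshold. Over both arms the change was -0.15 on knockdown (adjusted p = 0.0517, exact permutation p = 0.025) and 0.15 with TVA (adjusted p = 0.119, exact permutation p = 0.03). Without siNTC replicate 3 the knockdown change passed, at -0.29 without TVA (adjusted p = 0.0116) and at -0.20 over both arms (adjusted p = 0.0073).

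Junb, an AP-1 subunit that dimerises with FOS or BATF proteins, was by far the most abundant of the 10. It measured 52.6, 52.7 and 46.2 FPKM with siNTC alone, 42.7, 45.9 and 45.3 with siNTC and TVA, 43.5, 38.2 and 44.5 with siCreb1 alone, and 43.0, 45.0 and 40.4 with siCreb1 and TVA. The 3 siNTC libraries were the highest of the 12, and the other 3 groups overlapped each other. Knockdown without TVA lowered the mean from 50.5 ± 3.71 to 42.1 ± 3.38 FPKM (SD, n = 3), a ratio of 0.833 and a log2 change of -0.26 (SE 0.067, adjusted p = 0.0287). TVA in siNTC cells gave a log2 change of -0.17 (SE 0.067, adjusted p = 0.17), and TVA in siCreb1 cells 0.03 (adjusted p = 0.948). Knockdown in the presence of TVA gave -0.06 (adjusted p = 0.615), and the interaction was 0.20 (adjusted p = 0.381). Over both arms the knockdown change was -0.16 (adjusted p = 0.0383, exact permutation p = 0.02). The call without TVA was lost without siNTC replicate 1 (adjusted p = 0.0909), siNTC replicate 2 (0.0923), siCreb1 replicate 1 (0.0516) or siCreb1 replicate 2 (0.0911), and the call over both arms was lost on leaving out replicate 1 or 2 of siNTC, replicate 2 or 3 of siNTC plus TVA, replicate 1 or 2 of siCreb1, or replicate 1 or 3 of siCreb1 plus TVA (adjusted p from 0.0504 to 0.0832). With processing alternatives counted too, the call without TVA was kept in 13 of 21 and that over both arms in 6 of 20. Both calls were also kept with a pseudocount of 0.1, which these counts leave out. At its 3′ end Junb (chr8:84974484-84978718, minus strand) overlaps Prdx2 on the other strand by 173 of 2301 exonic bases; whether reads were counted by strand is not given in the sources used here, and the log2 change of Prdx2 was 0.03 on knockdown without TVA (adjusted p = 0.759) and 0.04 with TVA in siNTC cells (adjusted p = 0.746).

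Fos and Fosb, the other AP-1 subunits measured here, were too low for the main test and are given with their reads. Fos measured 0.62, 0.66 and 0.64 FPKM with siNTC alone, 0.81, 0.97 and 0.94 with siNTC and TVA, 0.65, 0.30 and 0.31 with siCreb1 alone, and 0.83, 0.80 and 0.64 with siCreb1 and TVA. The siNTC plus TVA libraries lay above all siNTC libraries, and in the siCreb1 arm 1 library without TVA lay within the range with TVA. Over both arms the mean with TVA was 1.57 times that without (exact permutation p = 0.01), and that in siCreb1 was 0.762 times that in siNTC (exact permutation p = 0.045), each before any correction over genes. In the fit without a filter the TVA change over both arms had an adjusted p of 0.176, and on recovered reads of all genes above 0 the log2 change was 0.73 (SE 0.20, adjusted p = 0.094, limma-voom). At 16 to 47 reads per library a change of this size was not separable from the spread after adjustment. Fosb ranged from 0.120 to 0.301 FPKM, its range in siCreb1 plus TVA (0.220 to 0.301 FPKM) overlapped those in siCreb1 (up to 0.222) and siNTC plus TVA (up to 0.236) and lay above that in siNTC (up to 0.209), and its TVA ratio over both arms was 1.45 (exact permutation p = 0.035, adjusted p = 0.473 without a filter).

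Egr1 and Egr2 are zinc finger factors induced by ERK and calcium signals, and Egr2 is tied to T cell anergy. Egr1 measured 6.50, 6.65 and 6.08 FPKM with siNTC alone, 6.75, 5.87 and 6.80 with siNTC and TVA, 6.07, 5.68 and 5.69 with siCreb1 alone, and 5.93, 6.08 and 6.10 with siCreb1 and TVA. Its siCreb1 libraries without TVA lay just below the siNTC ones, by a log2 change of -0.12 (SE 0.054, adjusted p = 0.175). Over both arms the change was -0.10 (adjusted p = 0.0837, exact permutation p = 0.035), and it passed without siNTC plus TVA replicate 2 (-0.13, adjusted p = 0.0199). Egr2 measured 2.55, 2.54 and 2.71 FPKM with siNTC alone, 1.96, 2.28 and 2.17 with siNTC and TVA, 2.83, 2.88 and 2.29 with siCreb1 alone, and 2.53, 2.34 and 2.08 with siCreb1 and TVA. The direction with TVA was downward in both arms, with log2 changes of -0.20 in siNTC cells (SE 0.081, adjusted p = 0.187) and -0.14 in siCreb1 cells (adjusted p = 0.647), and only in siNTC cells did the ranges stand apart. Over both arms the TVA change of Egr2 was -0.17 (SE 0.057, adjusted p = 0.129, exact permutation p = 0.015), which missed the adjusted threshold, and the knockdown change was 0.05 (adjusted p = 0.569).

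The NR4A receptors can bind DNA as monomers, and all 3 are induced by cAMP in many tissues. Nr4a1 measured 3.81, 3.60 and 3.46 FPKM with siNTC alone, 3.49, 4.01 and 3.31 with siNTC and TVA, 3.50, 3.09 and 3.64 with siCreb1 alone, and 2.64, 3.31 and 4.00 with siCreb1 and TVA. All 4 groups overlapped, the log2 changes in the 4 comparisons lay between -0.10 and -0.01, and the 95% interval of the knockdown change without TVA ran from -0.31 to 0.16. Nr4a2 measured 0.95, 1.44 and 1.14 FPKM with siNTC alone, 1.53, 1.44 and 1.64 with siNTC and TVA, 1.34, 1.38 and 1.42 with siCreb1 alone, and 1.26, 1.07 and 1.32 with siCreb1 and TVA. Its TVA change was 0.22 in siNTC cells (SE 0.093, adjusted p = 0.199) and -0.10 in siCreb1 cells (adjusted p = 0.805), and the difference of these had a log2 value of -0.33 (SE 0.132, adjusted p = 0.282). Nr4a3 measured 2.14, 1.88 and 2.17 FPKM with siNTC alone, 2.55, 2.17 and 2.13 with siNTC and TVA, 2.07, 2.15 and 2.22 with siCreb1 alone, and 2.12, 1.91 and 2.09 with siCreb1 and TVA. Its changes were between -0.11 and 0.10, none past the adjusted threshold. In the presence of TVA the siCreb1 ranges of Nr4a2 and Nr4a3 lay below the siNTC ranges, with log2 changes of -0.19 (adjusted p = 0.217) and -0.11 (adjusted p = 0.373). The siCreb1 plus TVA group is also the one with the higher myeloid markers, whose part in these values was not tested.

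The 8 tested genes differed in how they varied across the 12 libraries. Pearson's r of log2(FPKM + 1) was highest between Egr1 and Dusp5 (0.739) and between Dusp1 and Dusp5 (0.637) and lowest between Egr2 and Dusp5 (-0.637), and the 12 points share the group differences. The genes most like Dusp1 were I830077J02Rik (r = 0.960) and Gpx1 (0.930), those most like Junb were Il17ra (0.915) and Bend4 (0.909), those most like Dusp5 were Cnn2 (0.889) and Srp72 (0.874), and those most like Egr1 were Znhit2 (0.903) and Gng5 (0.860). Egr2 was most like Gm12250 (0.864) and Usp18 (0.825), Nr4a1 like Gm28901 (0.849) and Gm8116 (0.823), Nr4a2 like Serpinb6b (0.912), and Nr4a3 like Tbk1 (0.932) and Panx1 (0.905). These are the 2 highest of 11542 candidates for each gene (for Nr4a2 the highest) and describe these libraries.

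Of 22 other immediate early regulators tested in a list of 25, 7 passed as lower, 0 as higher and 15 did not pass in siCreb1 without TVA (6 to 8 lower when 1 library was left out, 5 to 8 under the other alternatives, and up to 1 higher in either), where 7.21% of all genes passed as lower, with a list median of -0.13 beside 0.00 over all genes. Klf2, a quiescence and trafficking factor, stood at 293, 330.2 and 286 FPKM in siNTC and 212, 203 and 214 in siCreb1, a change of -0.53 (SE 0.057, adjusted p = 0.000349). The antiproliferative Btg2 (-0.30, adjusted p = 0.000152) and Btg1 (-0.25, adjusted p = 0.000135) and Ier5 (-0.25, adjusted p = 0.00119) fell as well. These 4 calls were kept in all alternatives run for them. In the presence of TVA 2 of 22 passed as lower on knockdown, Btg2 (-0.19, adjusted p = 0.00303) and Klf2 (-0.20, adjusted p = 0.0464), but 1 on leaving out any library other than siNTC replicate 2 or 3 or siNTC plus TVA replicate 1, and 20 did not pass. The other alternatives gave 0 to 3 as lower and up to 1 as higher. Of all genes, 10.1% passed in that comparison, in either direction. With TVA in siNTC cells 1 of 22 passed as higher and 2 as lower (1 as lower on leaving out any library other than siNTC replicate 3, siNTC plus TVA replicate 1 or siCreb1 replicate 1). Of all genes, 7.38% passed there in either direction. Klf10, a TGF-β inducible repressor, rose from 2.68, 2.04 and 2.33 to 3.47, 3.09 and 3.82 FPKM (0.41, adjusted p = 0.0123, but 0.0924 with only the libraries compared), and over both siRNA arms it rose by 0.43 (adjusted p = 0.00159), which all alternatives kept. Btg1 fell by 0.20 in siNTC cells (adjusted p = 0.000353).

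**Figure D4:**
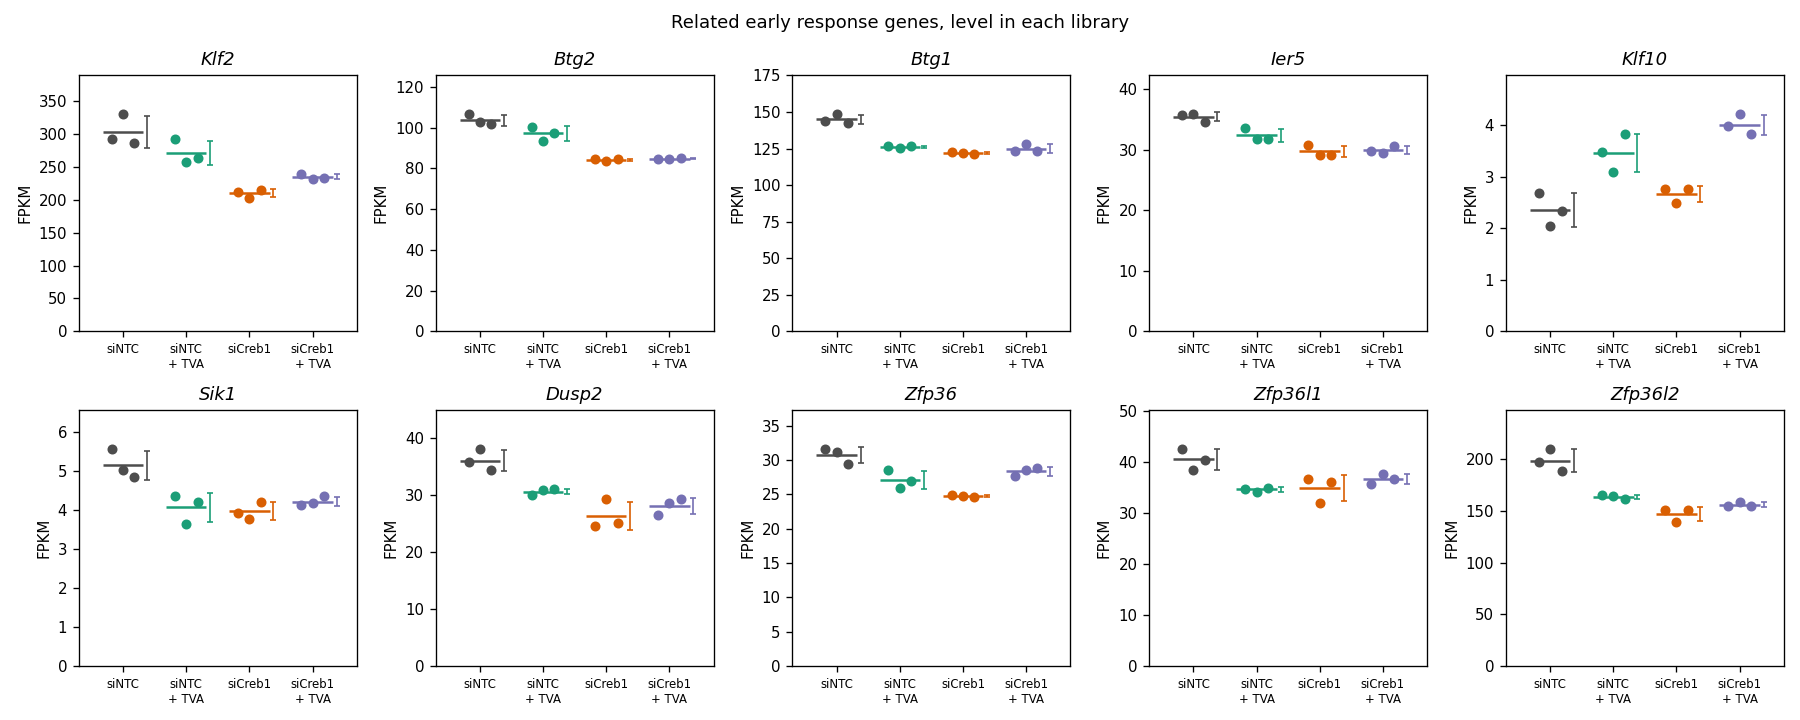
FPKM of 10 related early response genes by library, drawn as for the 10 CREB targets (points are libraries, lines means, bars SD, n = 3, axes from 0). Klf2, Btg2, Btg1, Ier5, Dusp2 and the Zfp36 family are highest in siNTC, and Klf10 is higher with TVA in both arms.

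Among 14 tested genes of a list of 20 other cAMP and CREB targets, 3 passed as lower and 1 as higher in siCreb1 without TVA. Of all genes, 13.7% passed in that comparison, and 7.21% passed as lower. Sik1, a kinase that feeds back on CREB coactivators, fell by 0.31 (adjusted p = 0.0123) and the phosphodiesterase Pde3b fell by 0.26 (adjusted p = 0.000886), whereas the survival factor Bcl2 rose by 0.20 (adjusted p = 0.000433). With TVA in siNTC cells 0 passed as higher and 3 as lower, but 1 without siNTC replicate 2, siNTC plus TVA replicate 2 or siNTC plus TVA replicate 3. Of all genes, 7.38% passed with TVA in siNTC cells, in either direction. Pde3b fell by 0.19 there (adjusted p = 0.00549) in every alternative. In a list of 15 further DUSP, SPRY and SPRED feedback inhibitors, 9 were tested and 2 passed as lower in siCreb1 without TVA (1 without siNTC replicate 2, siNTC replicate 3 or siCreb1 replicate 2). Dusp2, a phosphatase of activated lymphocytes, stood at 35.7, 38.1 and 34.3 FPKM in siNTC and 24.6, 29.2 and 25.1 in siCreb1, a change of -0.44 (SE 0.063, adjusted p = 0.00158).

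Of 20 kinases upstream of immediate early genes, 0 passed by limma in each of the 4 comparisons between groups; without TVA 3 had an unadjusted p under 0.05 on knockdown and 2 passed by limma-voom, and for TVA in siNTC cells these counts were 2 and 1. Leaving out 1 library gave up to 2 as lower on knockdown without TVA (without siNTC plus TVA replicate 3). Of all genes, 13.7% passed on knockdown without TVA (7.21% as lower) and 10.1% on knockdown with TVA. With TVA 7.38% passed in siNTC cells and 0.537% in siCreb1 cells, in either direction. Over both arms 20.5% of all genes passed on knockdown, and 11.0% passed as lower. Over both arms 2 of the 20 passed as lower in siCreb1 cells, the ERK kinases Map2k1 (-0.09, adjusted p = 0.0422) and Map2k2 (-0.11, adjusted p = 0.0443), and 4 passed by limma-voom, but 0 or 1 passed as lower by limma on leaving out any 1 of the 12 libraries. Of the 19 tested factors that bind immediate early promoters, 1 passed as higher and 1 as lower in siCreb1 without TVA (0 as lower without siNTC replicate 1, 2 or 3 or siCreb1 replicate 1 or 2), and the ternary complex factor Elk4 was the higher one, by 0.18 (adjusted p = 0.00343). Of 16 tested genes in a list of partners and corepressors of AP-1, NR4A and EGR proteins, 3 passed as lower and 0 as higher in siCreb1 without TVA. That list is broader than its name and also holds genes that are neither partners nor corepressors, such as Dgka, a diacylglycerol kinase. The EGR corepressor Nab1 fell by 0.23 (adjusted p = 0.00306) and by 0.30 in the presence of TVA (adjusted p = 0.00127), and the AP-1 subunit Jund, which is also among the 7 immediate early genes above, fell by 0.30 without TVA (adjusted p = 0.00979). Of 11 factors of AU-rich mRNA decay, a pathway that destroys many immediate early transcripts, 3 passed as lower and 1 as higher in siCreb1 without TVA. Zfp36l2 fell by 0.43 (adjusted p = 0.000151), Zfp36 by 0.30 (adjusted p = 0.000886), and Hnrnpd rose by 0.16 (adjusted p = 0.00835). With TVA in siNTC cells 4 of the 11 passed as lower and 1 as higher, with 1 as lower without siNTC replicate 1, siNTC plus TVA replicate 2 or siNTC plus TVA replicate 3 and 2 without siNTC replicate 2. Zfp36l2 measured 197, 210.1 and 189 FPKM with siNTC alone and 165, 164 and 161 with TVA added, a change of -0.28 (adjusted p = 0.00176) that every alternative kept.

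**Figure D5:**
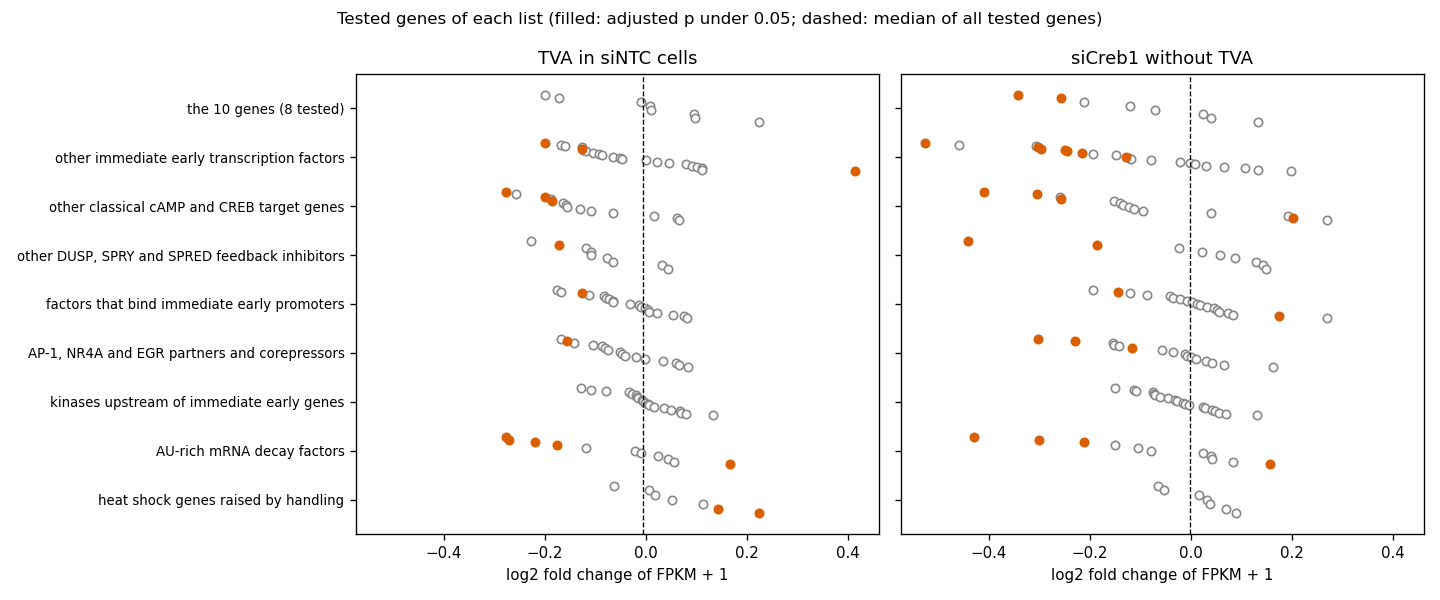
Log2 fold change of FPKM + 1 (horizontal axis) of the tested genes of each list, for TVA in siNTC cells (left) and siCreb1 without TVA (right). The list of AP-1, NR4A and EGR partners and corepressors also holds genes that are neither, such as Dgka, a diacylglycerol kinase. Filled points passed an adjusted p of 0.05 and the dashed line is the median of all tested genes; among the 10 CREB targets 0 passed with TVA and 2 on knockdown, both lower, and 7 other immediate early genes were lower on knockdown.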

How the data were processed

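RNA-seq was made from mouse primary CD8+ T cells in 4 groups of 3 libraries. The authors deposited FPKM for 54532 genes per library with gene positions and lengths; GRCm38 and mm10 are the builds named in the submitters' processing notes, and the aligner, counter and strand setting are not given in the sources used here. FPKM times gene length were whole multiples of a step per library, so whole reads were recovered (16660234 to 24602484 per library, median 20759165). Replicate libraries differed with a variance 3.74 to 5.74 times that of counting alone (chi-square per gene), so no library was counted as a repeat of another.

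Genes averaging 1 FPKM or more over the 12 libraries (11550) entered a linear model of log2(FPKM + 1) in limma 3.58.1, R 4.3.3, with moderated variances that follow the expression level (eBayes, trend), in a fit over all 12 libraries with 1 coefficient per group, and p-values were Benjamini-Hochberg adjusted over all tested genes with a threshold of 0.05. The pseudocount of 1 makes fold changes of low genes smaller than their FPKM ratios. Single genes were also tested on FPKM with two-sided exact permutations over all 20 divisions of an arm, which cannot go below p = 0.1, or over 400 divisions within both arms. The script was tested on simulated data. Reads were tested by limma-voom as an alternative, and the version on all genes above 0 was chosen after seeing the data.

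The 10 genes and the gene lists were chosen with earlier results of these data known. By the naming rule the text may give all 10 genes and Creb1 in every comparison, from each list at most the 4 genes with the smallest p in a comparison, and for each tested gene its 2 most correlated genes, of which 1 is not reported here; Prdx2 was added after its overlap with Junb was seen. Promoters came from RefSeq (GRCm38.p6) and matched 9 of 10 genes. The replicate numbers come from the labels; same-numbered libraries did not deviate together (r from -0.0593 to 0.0595), so the main fit has no block. Figures were drawn with matplotlib 3.10.9.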

Additional observations from a re-analysis of the deposited data

Results flagged for a closer look

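For 6 genes of the lists, the TVA effect differed between siCreb1 and siNTC cells by the interaction term of the limma fit (effect in siCreb1 minus effect in siNTC, log2). None of the 10 CREB targets did, and 2.24% of all genes passed. By list these were 2 of 11 AU-rich decay factors, 1 of 22 other immediate early regulators and 1 of 16 in the AP-1, NR4A and EGR list. The others were 1 of 7 heat shock genes and 1 of 8 CD8 T cell markers. The interaction term was 0.36 for Zfp36 (adjusted p = 0.00662), with TVA effects of -0.18 in siNTC and 0.19 in siCreb1 cells, and 0.36 for Zfp36l2 (adjusted p = 0.00793), with effects of -0.28 and 0.09. It was 0.23 for Btg1 (adjusted p = 0.00432), with effects of -0.20 and 0.03, and 0.21 for Dgka (adjusted p = 0.00277), a diacylglycerol kinase induced by anergy, with effects of -0.16 and 0.05. It was -0.38 for Gzmb (adjusted p = 0.00254), which encodes granzyme B, with effects of 0.31 and -0.08, and -0.19 for Hsp90aa1 (adjusted p = 0.0306), with effects of 0.22 and 0.03. The Hsp90aa1 call was lost in 15 alternatives, 10 of them leaving out a single library (every one but siNTC replicate 1 and siCreb1 plus TVA replicate 2; adjusted p from 0.0545 to 0.0806), and the Dgka call with FPKM rescaled to TPM (adjusted p = 0.0781).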

How the results depend on the processing

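Of 22 alternatives, 21 were planned and 1 (limma-voom on all genes above 0) was chosen after seeing the data. The count of the 8 genes past the threshold stayed at 0 in every alternative for TVA in siNTC cells, TVA in siCreb1 cells, siCreb1 with TVA and the interaction. For siCreb1 without TVA it was 2, but 0 with no filter on low values, 1 when a mean of 5 FPKM or more was required (3 of the 10 genes tested, Dusp1 not among them), 1 with FPKM rescaled to TPM, 1 with the replicate block, 1 with only the libraries compared and 1 by limma-voom on all genes above 0; it ran from 0 to 3 when 1 library was left out. For siCreb1 over both arms it was 2, but 1 with no filter, 1 with TPM, 1 with quantile normalization, 1 with the replicate block, 1 without a mean-variance trend and 1 by limma-voom on all genes above 0, and 1 to 3 when 1 library was left out. For TVA over both arms it was 0, but 1 by limma-voom (Dusp5, 0.18, adjusted p = 0.0341). Under the replicate block the Junb calls were lost (adjusted p = 0.0546 without TVA and 0.0647 over both arms) and no other call of the 10 genes changed; the numbers are not known to pair the libraries. Over both arms 7 of the 8 genes were lower in siCreb1 cells, with a median change of -0.09 beside -0.01 over all genes. It was 6 of 8 without siNTC replicate 2, 5 of 8 with TPM and 8 of 10 with no filter. The share of all genes that were lower in that comparison is not given here. No called change turned direction, and 28 of 1187 repeats turned the sign of a change of the 10 genes that had not passed.

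Genes passing over the whole table depended on the setting. For TVA in siNTC cells 852 passed, 556 with TPM, 563 with no filter and 368 with only the libraries compared; for siCreb1 without TVA 1586, 992 with no filter and 817 with only the libraries compared; for siCreb1 with TVA 1172, 740 with TPM and 683 with no filter; for TVA in siCreb1 cells 62, 37 with TPM, 34 with the replicate block, 39 with only the libraries compared, 155 by limma-voom and 178 by limma-voom on all genes above 0; for the interaction 259, 152 with TPM and 446 by limma-voom; for TVA over both arms 641, 404 with TPM and 385 with no filter. Leaving out 1 library gave 558 to 767, 1020 to 1532, 599 to 1245, 30 to 67, 168 to 237 and 435 to 598 for these comparisons in turn, lowest without siNTC plus TVA replicate 2, siCreb1 replicate 1, siCreb1 plus TVA replicate 1, siCreb1 replicate 2 and siCreb1 replicate 1 for the first 5, so the shares of all genes given beside the 10 genes move alike. The share passing as higher in siCreb1 without TVA was 47.5%, and 75.4% with TPM and 59.9% by limma-voom; with TVA 45.7%, and 83.8%, 59.6% and, with quantile normalization, 64.0%; over both arms 46.4%, and 78.6% with TPM and 59.7% by limma-voom. For TVA in siNTC cells it was 60.9%, and 72.3% with TPM; over both arms 57.3%, and 69.8% with TPM; for TVA in siCreb1 cells 22.6%, and 41.3% by limma-voom. The median of all genes moved by at most 0.054 on the log2 scale. The cause was not tested. The 3 libraries per group, and the 13 to 47 reads per library of Fos and Fosb, limit what can be told apart.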
